A study of Mus musculus with 12 samples.

Results

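Hair keratins and keratin-associated proteins were examined in whole mouse skin as a group of genes chosen by name. The group comprised 23 listed hair genes (type I and type II hair keratins, keratins of the inner root sheath, trichohyalin and the enzyme that modifies it, 3 hair transcription factors and the predicted gene Gm11559) and every gene whose symbol begins with Krtap and that had a probe set of its own. This rule gave 61 genes, of which 60 were measured among 18193 genes on the arrays. They were 22 of the 23 listed genes, Krt85 having no usable probe set here, and 38 keratin-associated protein genes. The rule itself uses names and no measured value, although the listed genes were chosen with earlier results of these data known. No filter on low signal was applied, so all 60 measured members stand in every count below.

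The samples were 12 microarrays of total RNA from whole skin in 4 groups of 3 biological repeats. The groups were Ahr-/- mice treated with imiquimod (IMQ) for 2 days, Ahr+/- mice treated with IMQ for 2 days, untreated Ahr-/- mice and untreated Ahr+/- mice. Ahr encodes the aryl hydrocarbon receptor, a transcription factor that is activated by small molecules, and IMQ cream on skin is a mouse model of psoriasis-like inflammation. Ahr-/- mice lack the receptor in every cell, and their controls were heterozygous littermates, so that every control animal carried 1 disrupted copy of Ahr and no wild-type skin was measured. IMQ was given daily as Aldara cream on shaved dorsal skin. The untreated mice received no cream, so that IMQ, its vehicle and the handling of the skin cannot be told apart. The age of the mice, the hair cycle stage of the skin and whether untreated skin was shaved are not given in the sources used here.

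The hair follicle alternates between growth (anagen), regression and rest (telogen). In a growing follicle the matrix cells of the bulb divide and move upwards, and their descendants form the hair shaft and the inner root sheath around it. Cortex and cuticle cells of the shaft fill with hair keratins, which pair as a type I and a type II chain into filaments, and keratin-associated proteins then join those filaments into a hard, sulfur-linked or glycine- and tyrosine-rich matrix. Because whole skin was measured, fewer cells of a type and less RNA per cell cannot be told apart.

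An array of the untreated Ahr+/- group, labelled replicate 2 and called Ahr+/- untreated 2 here, stood apart from the others in these genes. Its signal was the highest of its group for 58 of the 60 members, the exceptions being Krt84 (highest in replicate 1) and Krtap13 (highest in replicate 3), and the median gap to the next array was 3.12 on the log2 scale. The members' main calls and median differences that rest on untreated Ahr+/- skin are therefore given with and without that array. The counts of groups that do not overlap, and those of a second method, the rank product, always include it. Array medians over the 18193 genes were 7.38 to 7.56 (log2), and the highest correlation between any pair of arrays was 0.9955, so that no array repeated another. RNA quality differed between arrays: the 3' probe set of Gapdh exceeded its 5' probe set by 1.17 and 1.52 log2 units in Ahr-/- IMQ 1 and 2, and by 0.14 to 0.53 on the other 10 arrays. The Ahr probe set read 9.07 to 9.87 in Ahr-/- IMQ, 9.79 to 10.3 in Ahr+/- IMQ, 11.3 to 11.4 in Ahr-/- untreated and 10.1 to 11.3 in Ahr+/- untreated skin. The arrays read the 3' end of transcripts and the sources used here do not say which part of Ahr is removed, so that this signal does not check the genotype.

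Among the type I hair keratins, which form the shaft cortex and cuticle together with type II partners, Krt32 (a cuticle keratin) read 6.01, 6.49 and 6.23 in Ahr-/- IMQ, 6.62, 6.68 and 6.38 in Ahr+/- IMQ, 7.56, 7.78 and 7.73 in Ahr-/- untreated and 7.98, 10.29 and 7.70 in Ahr+/- untreated skin (log2 signal, arrays 1 to 3). All 6 IMQ arrays lay below all 6 untreated arrays. For the other 5 type I members the untreated Ahr-/- arrays overlapped the range of the 6 IMQ arrays. Krt35, in humans an early keratin of the cortex and cuticle, read 4.74, 4.73 and 4.22 in Ahr-/- IMQ, 6.32, 4.60 and 4.64 in Ahr+/- IMQ, 4.82, 5.38 and 4.54 in Ahr-/- untreated and 6.74, 12.12 and 7.62 in Ahr+/- untreated skin. For Krt35 the 3 untreated Ahr+/- arrays were the highest of the 12.

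Of the type II hair keratins, Krt81 (a cortex keratin in humans) read 7.18, 7.72 and 7.54 in Ahr-/- IMQ, 8.09, 7.29 and 7.24 in Ahr+/- IMQ, 7.38, 7.70 and 7.60 in Ahr-/- untreated and 8.18, 11.40 and 8.25 in Ahr+/- untreated skin. The untreated Ahr+/- arrays were again the highest of the 12, replicate 1 only just above Ahr+/- IMQ 1. Krt82 read 7.78 in Ahr+/- untreated 2 and lay between 3.38 and 4.26 on the other 11 arrays. Krt84, best known from tongue and nail, lay between 6.44 and 7.49 on all 12 arrays with no group apart, and Krt86 lay between 4.20 and 6.91 except in Ahr+/- untreated 1 and 2, which read 7.93 and 11.31.

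Among the keratins of the inner root sheath, Krt25, of type I, read 4.87, 6.84 and 5.42 in Ahr-/- IMQ, 10.32, 6.99 and 5.79 in Ahr+/- IMQ, 6.25, 9.26 and 3.95 in Ahr-/- untreated and 10.04, 14.53 and 11.59 in Ahr+/- untreated skin. Ahr+/- IMQ 1 and Ahr-/- untreated 2 were the high arrays of their groups, and Ahr+/- IMQ 1 lay above Ahr+/- untreated 1. Krt71, a type II sheath keratin in which mutations give wavy coats in mice, read 6.52, 6.76 and 6.71 in Ahr-/- IMQ, 8.04, 6.49 and 6.76 in Ahr+/- IMQ, 6.52, 7.58 and 6.27 in Ahr-/- untreated and 8.67, 12.72 and 8.79 in Ahr+/- untreated skin. Here the 3 untreated Ahr+/- arrays lay above the other 9. Trichohyalin (Tchh), which hardens the sheath and the medulla, read 6.26, 7.38 and 6.80 in Ahr-/- IMQ, 10.44, 7.51 and 7.05 in Ahr+/- IMQ, 8.40, 10.28 and 7.34 in Ahr-/- untreated and 10.65, 13.76 and 10.82 in Ahr+/- untreated skin, with Ahr+/- IMQ 1 and Ahr-/- untreated 2 close to the lower untreated Ahr+/- arrays. Padi3, the enzyme that turns arginines of trichohyalin into citrullines, lay between 4.79 and 6.39 on 11 arrays and at 10.96 in Ahr+/- untreated 2.

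**Figure D1:**
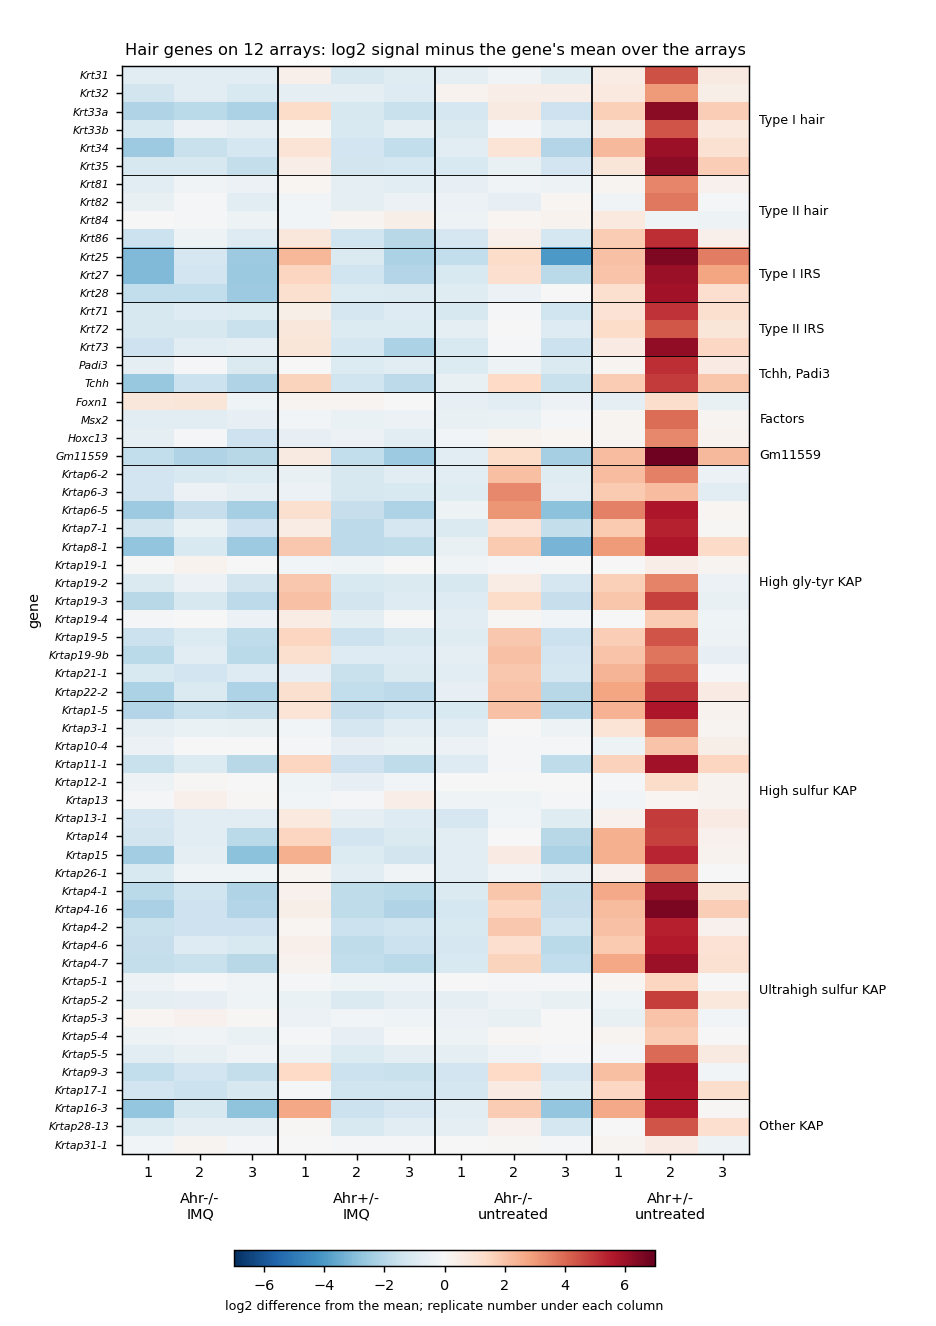
Heat map of the 60 measured members (rows, ordered by role) on the 12 arrays (columns, by group). Colour gives the log2 signal minus the mean of that gene over the 12 arrays, so that levels of different genes are not compared. Ahr+/- untreated 2 is the highest array for most rows, and Ahr+/- IMQ 1 and Ahr-/- untreated 2 stand above the other arrays of their groups.

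The 3 transcription factors did not move together. Hoxc13, which regulates hair keratin genes, read 6.63, 7.23 and 5.84 in Ahr-/- IMQ, 6.73, 6.92 and 6.50 in Ahr+/- IMQ, 7.12, 7.57 and 7.42 in Ahr-/- untreated and 7.51, 10.66 and 7.56 in Ahr+/- untreated skin. Msx2, a homeobox factor of the matrix and the forming shaft, read 6.56, 6.58 and 6.80 in Ahr-/- IMQ, 7.18, 6.87 and 6.95 in Ahr+/- IMQ, 6.85, 6.89 and 7.27 in Ahr-/- untreated and 7.54, 11.25 and 7.57 in Ahr+/- untreated skin. For both, Ahr+/- untreated 2 lay far above the other 11 arrays, which spanned 5.84 to 7.57 for Hoxc13 and 6.56 to 7.57 for Msx2. Foxn1, the gene mutated in nude mice and active in differentiating epidermal cells as well as in the hair, read 7.18, 7.25 and 6.09 in Ahr-/- IMQ, 6.61, 6.58 and 6.34 in Ahr+/- IMQ, 5.84, 5.60 and 5.97 in Ahr-/- untreated and 5.75, 7.63 and 5.90 in Ahr+/- untreated skin. For Foxn1 all 6 IMQ arrays lay above 5 of the 6 untreated arrays, and the highest array was Ahr+/- untreated 2. A second probe set of Msx2 lay between 3.08 and 3.95 on all arrays. The second probe set of Foxn1 lay between 5.1 and 6.0 on all arrays.

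The 38 keratin-associated protein genes were sorted by family name into 13 of the high glycine-tyrosine class, 10 of the high sulfur class, 12 of the ultrahigh sulfur class and 3 others. In the first class, whose products enter the cortex early, Krtap8-1 read 5.18, 6.85 and 5.41 in Ahr-/- IMQ, 9.82, 6.11 and 6.14 in Ahr+/- IMQ, 7.39, 9.77 and 4.69 in Ahr-/- untreated and 10.90, 13.60 and 9.28 in Ahr+/- untreated skin. Krtap22-2 and Krtap19-9b kept the same high arrays: Ahr+/- IMQ 1 read 8.47 and 7.84, Ahr-/- untreated 2 read 9.33 and 8.78, and Ahr+/- untreated 2 read 12.32 and 10.48. Krtap6-3 was an exception, since it read 8.19 in Ahr-/- untreated 2, above the 6.65, 6.96 and 4.03 of the untreated Ahr+/- arrays.

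Among the high sulfur genes, Krtap3-1 read 6.64, 6.84 and 6.79 in Ahr-/- IMQ, 7.12, 6.10 and 6.53 in Ahr+/- IMQ, 6.57, 7.34 and 6.91 in Ahr-/- untreated and 8.23, 10.91 and 7.47 in Ahr+/- untreated skin. The untreated Ahr+/- arrays were the highest of the 12. Krtap10-4 and Krtap12-1, of families found in the hair cuticle in humans, were nearly level outside Ahr+/- untreated 2, at 6.56 to 7.52 and 7.39 to 8.24, and read 9.14 and 9.25 on that array. Among the ultrahigh sulfur genes, Krtap4-6 read 5.60, 6.34 and 6.15 in Ahr-/- IMQ, 7.60, 5.47 and 5.70 in Ahr+/- IMQ, 6.06, 8.38 and 5.34 in Ahr-/- untreated and 9.05, 12.78 and 8.25 in Ahr+/- untreated skin. Krtap17-1 read 6.20 in Ahr+/- IMQ 1, 6.91 in Ahr-/- untreated 2 and 7.78, 11.95 and 7.54 in Ahr+/- untreated skin, against 4.81 to 5.45 on the other 7 arrays, while Krtap5-1 was at 6.71 to 7.18 everywhere but in Ahr+/- untreated 2, where it read 8.56. Of the 3 others, Krtap28-13 lay at 10.11 and Krtap16-3 at 10.83 in Ahr+/- untreated 2, and Krtap31-1 lay between 4.22 and 5.18 on all arrays.

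**Figure D2:**
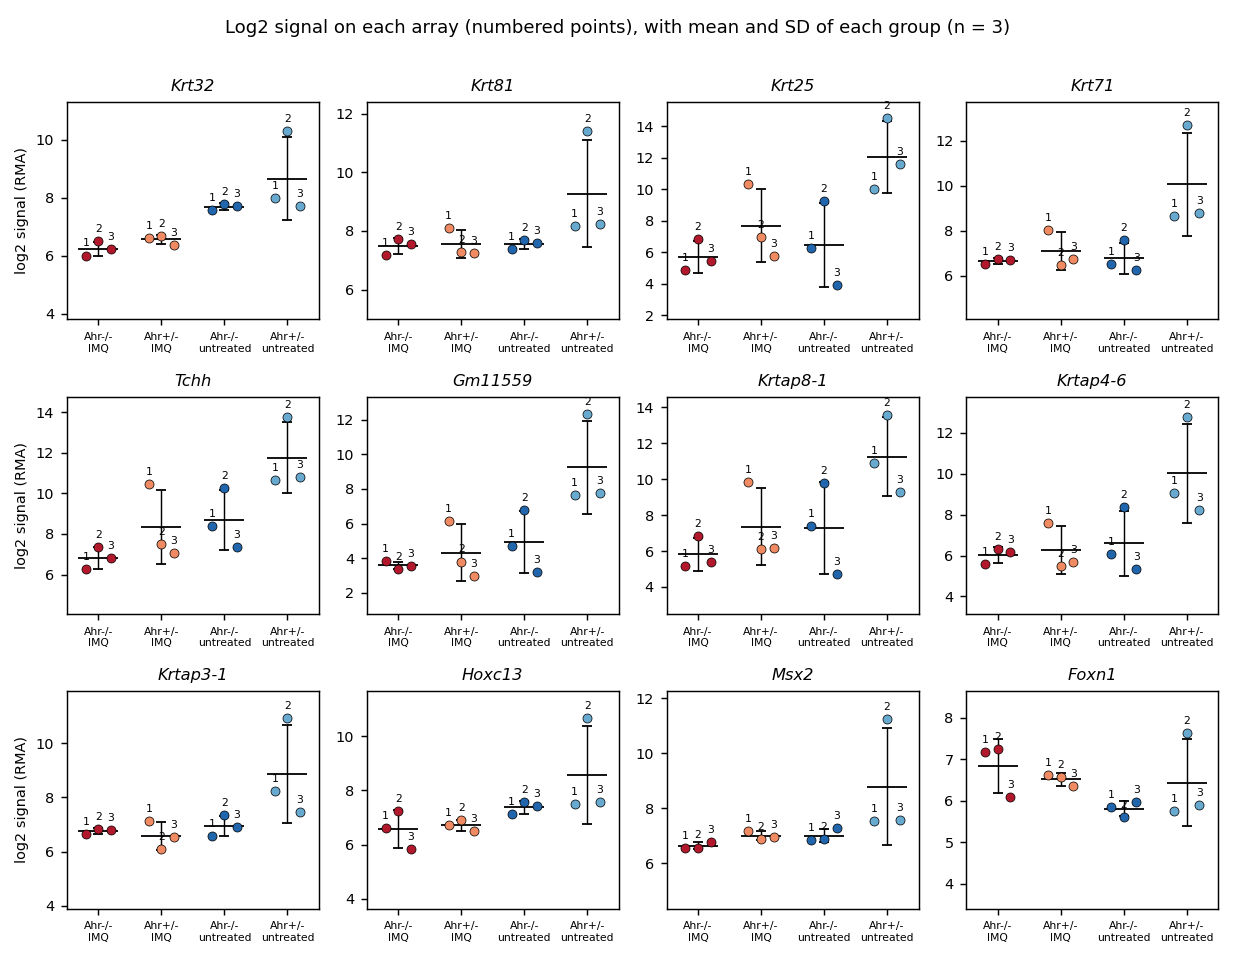
Log2 signal of 12 members on each array (points) with the mean and SD of each group of 3 arrays (bars), 1 panel per gene, groups on the x axis. The SD of untreated Ahr+/- skin is wide in most panels because replicate 2 lies above replicates 1 and 3. In the panel of Krt32 every IMQ array lies below every untreated array.

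The promoters are shown because many members were high on the same arrays. Of the 60 members, 53 were matched to a RefSeq promoter (GRCm38.p6), and the 250 bases before the start site were searched on both strands for TATAAA (the TATA box, which places the start of transcription), CTTTGA (the core bound by LEF1 and TCF factors) and GCGTG (the core bound by the aryl hydrocarbon receptor with its partner). None of the 3 motifs is contained in another. The first 4 sequences below belong to members with lower signal under IMQ in Ahr+/- skin, and Foxn1, which had no match in its 250 bases, is shown for contrast. They give the 120 bases before the start site, 5′ to 3′ along the gene's strand, with matches in capitals.
Gm11559, chr11:99864356-99864475, plus strand: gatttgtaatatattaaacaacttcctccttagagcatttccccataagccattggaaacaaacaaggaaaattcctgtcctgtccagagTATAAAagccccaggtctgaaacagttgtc
Krtap4-16, chr11:99851606-99851725, minus strand: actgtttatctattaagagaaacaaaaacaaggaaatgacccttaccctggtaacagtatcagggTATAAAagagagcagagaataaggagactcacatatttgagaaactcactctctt
Krtap4-1, chr11:99628240-99628359, minus strand: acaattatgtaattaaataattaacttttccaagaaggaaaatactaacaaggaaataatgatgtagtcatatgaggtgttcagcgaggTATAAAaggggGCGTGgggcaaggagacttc
Krt32, chr11:100088270-100088389, minus strand: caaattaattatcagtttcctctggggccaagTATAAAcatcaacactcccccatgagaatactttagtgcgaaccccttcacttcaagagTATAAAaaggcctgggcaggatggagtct
Foxn1, chr11:78386609-78386728, minus strand: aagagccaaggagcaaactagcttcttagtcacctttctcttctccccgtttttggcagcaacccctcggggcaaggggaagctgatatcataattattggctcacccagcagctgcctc
Counting back from the start site, TATAAA begins at position -30 in Gm11559, -55 in Krtap4-16 and -31 in Krtap4-1, whose GCGTG begins at -20. The promoter of Krt32 shows 2 TATAAA matches. It also holds a CTTTGA at -247, outside the stretch printed.

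TATAAA was found in 40 of the 53 matched members (75.5%), against 13% of the 27025 promoters in the table. On the gene's own strand and 45 to 16 bases before the start, where a TATA box usually lies, it was found in 29 members (54.7%), against 2.36% of all promoters. CTTTGA was found in 15 members (28.3%), against 14% of all promoters. GCGTG was found in 5 members (Krtap14, Krtap19-5, Krtap19-9b, Krtap4-1 and Krtap4-7, 9.43%), against 28.2% of all promoters. Split by the result in Ahr+/- skin below, TATAAA stood in 13 of the 14 matched members called lower under IMQ and in 27 of the 39 others, CTTTGA in 3 of the 14 and 12 of the 39, and GCGTG in 2 of the 14 and 3 of the 39. Members of a Krtap family lie beside each other in the genome and share sequence, so that these counts are not of independent promoters. A match is a run of letters, and binding was not measured.

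In Ahr+/- skin, IMQ for 2 days was set against no treatment to ask which hair genes the treatment changed in the presence of the receptor. Members of the type I hair keratins, the inner root sheath keratins, trichohyalin and the Krtap3, Krtap4, Krtap17 and Krtap21 families were lower in IMQ-treated skin, and most members did not pass the test. A gene was called when limma's adjusted p, over all 18193 genes, was under 0.05 and the fold was at least 1.5. Of the 60 members, 16 were called lower and 0 higher, where 3.83% of all genes tested were called lower and 5.22% higher. The log2 difference was below 0 for 58 members, with a median of -2.55, against a median of -0.01 over all genes. Before adjustment, 46 members had a p under 0.05, as had 24.9% of all genes. For 31 members all 3 IMQ arrays lay below all 3 untreated arrays, which held for 14.4% of all genes, and for 0 members they all lay above, which held for 15.4%.

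The called members with the largest differences were Gm11559, a predicted gene close to Krtap4-16 on chromosome 11, and Krtap4-16 and Krtap4-7, whose products are cysteine-rich cross-linkers of the shaft. Gm11559 read 6.17, 3.80 and 2.96 in Ahr+/- IMQ skin, against 7.65, 12.35 and 7.77 in Ahr+/- untreated skin. The groups did not overlap, and the log2 difference was -4.95 (SE 1.19, limma adjusted p = 0.0210). Krtap4-16 differed by -4.68 (SE 1.14, adjusted p = 0.0223) and Krtap4-7 by -4.38 (SE 1.07, adjusted p = 0.0224), each with 3 IMQ arrays below the 3 untreated arrays. For these 3 genes 2 of the 3 IMQ arrays read below 5, where signal above background was not tested, so that the sizes and their order rest on dim signals. Krt32 had the smallest adjusted p of the members, with a log2 difference of -2.10 (SE 0.49, 4.28-fold, adjusted p = 0.0175).

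By role, 4 of 6 type I hair keratins were called lower (Krt32, Krt33a at -3.69, Krt34 at -3.79 and Krt35 at -3.64). Krt31 (-2.42, adjusted p = 0.0749) and Krt33b (-2.45, adjusted p = 0.0639) were not. Of the type II hair keratins 0 of 4 were called: Krt81 differed by -1.73, Krt82 by -1.50, Krt84 by 0.11 and Krt86 by -3.29, with adjusted p of 0.109, 0.246, 0.866 and 0.0578. Among the sheath keratins 1 of 3 of type I was called (Krt27 at -4.25, adjusted p = 0.0313), as were 2 of 3 of type II (Krt71 at -2.97 and Krt72 at -2.55). Krt25 (-4.35, SE 1.42, adjusted p = 0.0740), Krt28 (-3.01, adjusted p = 0.0796) and Krt73 (-3.62, adjusted p = 0.0673) were not called.

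Tchh was called lower (-3.41, SE 0.99, adjusted p = 0.0465) and Padi3 was not (-2.56, adjusted p = 0.109). The keratin-associated proteins called lower were 5 of 12 of the ultrahigh sulfur class (Krtap4-1, Krtap4-6, Krtap4-7, Krtap4-16 and Krtap17-1), 1 of 10 of the high sulfur class (Krtap3-1) and 1 of 13 of the high glycine-tyrosine class (Krtap21-1). The class medians were -3.30, -2.24 and -2.29. Krtap8-1 differed by -3.90 with an adjusted p of 0.0867. Of the transcription factors 0 of 3 were called, at -1.86 for Hoxc13 (adjusted p = 0.0920), -1.79 for Msx2 (adjusted p = 0.138) and 0.08 for Foxn1 (adjusted p = 0.939).

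Without Ahr+/- untreated 2 the differences were smaller and the calls partly other genes. There 13 members were called lower and 0 higher (6.3% of all genes called lower, 7.09% higher), 55 were below 0 and the median was -1.32. At an unadjusted p under 0.05 there were 35 members, against 27.5% of all genes. Called with and without that array were 9 members: Gm11559, Krt32, Krt35, Krt71, Krt72, Krtap17-1, Krtap3-1, Krtap4-16 and Krtap4-7. Krt32 then differed by -1.28 with an adjusted p of 0.00054, and Gm11559 by -3.40 with an adjusted p of 0.0245. Krt31, Krt33b, Krtap5-2 and Krtap5-5 were called only without it, at -1.12, -1.20, -0.95 and -0.94. Krt27 (-3.03, adjusted p = 0.0572), Tchh (-2.40, adjusted p = 0.0971), Krt33a, Krt34, Krtap4-1, Krtap4-6 and Krtap21-1 were called only with it. The count of members called lower also rested on other arrays. It was 0 without Ahr+/- IMQ 2 (2.3% of all genes called lower) or without Ahr+/- IMQ 3 (2.49%), and 17 without Ahr+/- IMQ 1 (1.74%). It was 28 without Ahr+/- untreated 1 (3.54%) and 25 without Ahr+/- untreated 3 (3%). When any of 5 of the Ahr-/- arrays was left out it was 6 to 10 (3.28% to 3.95%), and it was 13 without Ahr-/- untreated 2 (3.3%). The rank product was run with Ahr+/- untreated 2 included. By it 27 members were lower and 0 higher, where 0.478% of all genes were lower and 0.792% higher.

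**Figure D3:**
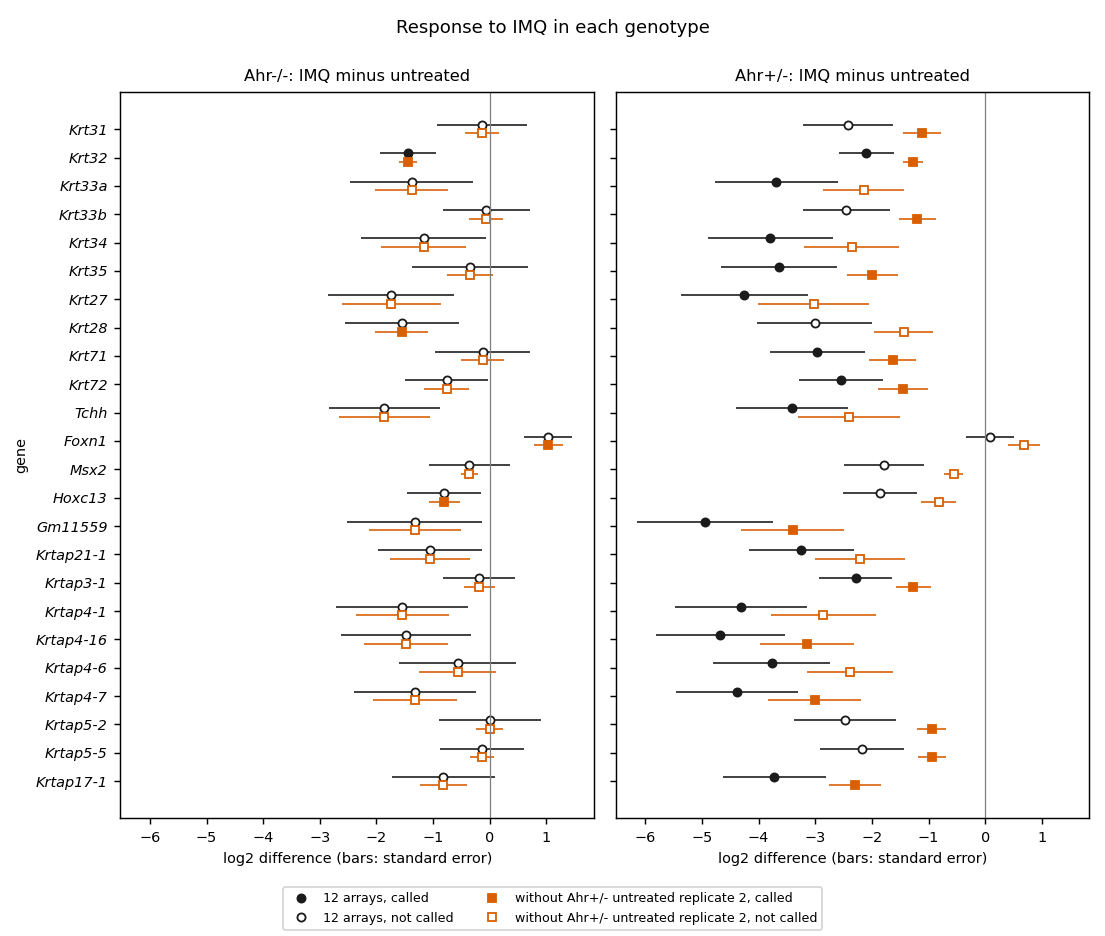
Log2 differences of 24 members, IMQ-treated minus untreated skin, in Ahr-/- skin (left) and Ahr+/- skin (right). Black circles use all 12 arrays and orange squares leave out Ahr+/- untreated 2, bars give the SE, and filled symbols are called. In Ahr+/- skin most values lie well below 0 and move towards 0 without that array, and in Ahr-/- skin Krt32 is the filled circle.

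In Ahr-/- skin the same question was asked without the receptor, and Krt32 was the member called. Krt32 read 6.01, 6.49 and 6.23 in Ahr-/- IMQ skin, against 7.56, 7.78 and 7.73 in Ahr-/- untreated skin. The groups lay more than 1 log2 unit apart, and the difference was -1.44 (SE 0.49, 2.72-fold, limma adjusted p = 0.0436). Of the 60 members 1 was called lower and 0 higher, where 12.1% of all genes were called lower and 10.6% higher. The differences were below 0 for 53 members, but the median was -0.54, against 0.07 over all genes, and 2 members had an unadjusted p under 0.05, as had 38.7% of all genes.

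Of members not called, Tchh differed by -1.86 (adjusted p = 0.185), Gm11559 by -1.33 (adjusted p = 0.447), Krtap8-1 by -1.47 (adjusted p = 0.452) and Krt25 by -0.77 (adjusted p = 0.726). Without Ahr-/- untreated 2 the log2 difference of Krt25 was 0.61, so that its direction turned. All 3 IMQ arrays lay below all 3 untreated arrays for 8 members (Krt32, Krt33a, Krt28, Krt72, Msx2, Krtap4-2, Krtap5-1 and Krtap6-2), against 21.1% of all genes, and above them for 3 members (Foxn1, Krtap19-1 and Krtap5-3), against 21.7%. Foxn1 differed by 1.04 (SE 0.42, adjusted p = 0.0901). Its higher IMQ arrays, at 7.18 and 7.25, were Ahr-/- IMQ 1 and 2, which also had the largest Gapdh 3' minus 5' difference. With that difference as a covariate, 0 members had an unadjusted p under 0.05 in this comparison, against 26.8% of all genes. Apart from this fit, the part of RNA quality in the value of Foxn1 was not tested.

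Although Ahr+/- untreated 2 enters this comparison only through the pooled spread, leaving it out changed the calls. Then 3 members were called lower (Krt32, Krt28 at -1.56 with adjusted p = 0.0220, and Hoxc13 at -0.81 with adjusted p = 0.0400) and 1 higher (Foxn1, adjusted p = 0.00769), where 13.1% of all genes were called lower and 11.5% higher. On the second probe set of Foxn1 the groups overlapped, at 5.74, 5.38 and 5.52 in Ahr-/- IMQ, against 5.48, 5.05 and 5.36 in Ahr-/- untreated skin. The call of Krt32 was lost when any of the 3 Ahr+/- IMQ, 3 Ahr-/- IMQ or 3 Ahr-/- untreated arrays was left out, and kept without Ahr+/- untreated 1 or 3. Foxn1 was also called higher without Ahr-/- IMQ 3, where 11.9% of all genes were called higher. By the rank product 0 members were called, where 0.984% of all genes were lower and 1.06% higher.

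Under IMQ the 2 genotypes were compared directly, and 0 of 60 members were called higher or lower in Ahr-/- skin by limma, where 2.12% of all genes were called higher and 1.86% lower. At an unadjusted p under 0.05, 0 members passed, against 21% of all genes. The median difference was -0.34 (0.06 over all genes), with 49 members below 0. Ahr+/- IMQ 1 was the highest array of its group for 53 members, and without it the median was 0.032. That array stood apart in markers of other cells too: it was the highest of its group for 6 of 6 neutrophil genes (median gap 0.81), and Krt77, Krt10 and Lor, of the differentiated epidermis, read 10.01, 12.32 and 10.71 on it, against 12.67 to 12.80, 14.33 to 14.46 and 13.33 to 13.40 on the other pair of Ahr+/- IMQ arrays. Their part in the members' values was not tested. Krtap16-3 read 2.55, 4.14 and 2.42 in Ahr-/- IMQ, against 7.94, 3.77 and 4.08 in Ahr+/- IMQ skin, so that the groups overlapped (-2.23, adjusted p = 0.398). Krtap15 (-2.09, adjusted p = 0.359) and Tchh (-1.52, adjusted p = 0.400) had the same high array.

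Krt28, a type I sheath keratin, read 5.28, 5.28 and 4.41 in Ahr-/- IMQ, against 8.09, 6.01 and 5.97 in Ahr+/- IMQ skin. The groups did not overlap, and the difference was -1.70 with an adjusted p of 0.359. Without Ahr+/- untreated 2 it was called (SE 0.47, adjusted p = 0.0454), as 1 of 60 members, where 3.66% of all genes were called lower and 3.2% higher. The rank product, the method named in the study, ranks the folds between arrays of the 2 groups. It called 3 members lower in Ahr-/- IMQ skin (Krt25, Krtap15 and Krtap16-3) and 0 higher, where it called 0.467% of all genes lower and 0.693% higher. In total the groups did not overlap for 4 members lower in Ahr-/- skin (Krt28, Krt33a, Krt72 and Msx2), against 15% of all genes, and for 1 higher (Krtap5-3), against 18%.

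In untreated skin the genotypes were compared to ask whether hair genes differed before treatment. This comparison shares the 3 Ahr+/- untreated arrays with the comparison of IMQ in Ahr+/- skin, so that a high array among them lowers both. By limma 0 of 60 members were called in either direction, where 0% of all genes were called lower and 0.0055% higher. The members were nonetheless below 0 in 59 of 60 cases, with a median of -2.59 against 0.02 over all genes, and 41 had an unadjusted p under 0.05, as had 6.49% of all genes. Krt25 read 6.25, 9.26 and 3.95 in Ahr-/- untreated, against 10.04, 14.53 and 11.59 in Ahr+/- untreated skin, with a log2 difference of -5.57 (SE 1.42, adjusted p = 0.717). Krt71 differed by -3.27 (SE 0.84, adjusted p = 0.717), and Krt32 by -0.97 (adjusted p = 0.758).

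For 27 members all 3 Ahr-/- arrays lay below all 3 Ahr+/- arrays, against 3.78% of all genes, and for 0 members above, against 5.03%. Without Ahr+/- untreated 2 the median was -1.21, 57 members were below 0, 29 had an unadjusted p under 0.05 (3.39% of all genes) and 0 were called, where 0.0055% of all genes were called lower and 0.0165% higher. Krt25 then differed by -4.33, Krt71 by -1.94, Krt35 by -2.26 and Krt32 by -0.16. Without Ahr+/- untreated 1, 1 member was called lower, Krt35 (-4.95, adjusted p = 0.0374), where 0.137% of all genes were called lower and 0.995% higher. The rank product, with Ahr+/- untreated 2 included, called 32 members lower in Ahr-/- untreated skin and 0 higher. It called 0.258% of all genes lower and 0.066% higher.

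An interaction term was the log2 difference under IMQ in Ahr-/- skin minus that in Ahr+/- skin, so that a gene lowered less in Ahr-/- skin has a value above 0, and 0 of 60 members were called, where 0.539% of all genes were called higher and 0.786% lower. The interaction was above 0 for 59 members, with a median of 1.92 (0.05 over all genes), and 8 had an unadjusted p under 0.05, against 17.5% of all genes. Krt71 stood at 2.84 (adjusted p = 0.238), Krt35 at 3.29 (adjusted p = 0.260) and Krt32 at 0.65 (adjusted p = 0.668). Without Ahr+/- untreated 2 the median was 0.61 with 10 members at an unadjusted p under 0.05 (16.8% of all genes) and 0 called (0.737% of all genes higher, 0.665% lower), and Krt32 stood at -0.16. That Krt32 was called in both genotypes and the other 15 members in Ahr+/- skin alone is thus not shown to be a difference between genotypes.

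Within groups, arrays differed more in these genes than in others. The highest array led the next by a median of 3.12 in Ahr+/- untreated, 1.39 in Ahr+/- IMQ, 0.96 in Ahr-/- untreated and 0.26 in Ahr-/- IMQ skin, whereas over all genes the median gap was 0.10 to 0.20. The leading array was Ahr-/- IMQ 2 for 43 members and Ahr-/- untreated 2 for 48. Between the other pair of untreated Ahr+/- arrays the classes had different medians. Replicate 1 exceeded replicate 3 for 12 of 13 high glycine-tyrosine genes (median 2.17) and for all 5 Krtap4 genes (median 1.61). It lay below replicate 3 for the type I sheath keratins (median -0.78), was level for the type I hair keratins (median -0.06) and exceeded replicate 3 for 2 of 5 Krtap5 genes (median -0.33). Over all genes the median was -0.01. These are single arrays with no replicate, and their differences have no test.

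A second difference between single arrays shares Ahr+/- untreated 1 with the first, with the opposite sign, and is given for its values alone. Ahr+/- IMQ 1 minus Ahr+/- untreated 1 had a median of 0.00 for the type I sheath keratins and -0.03 for the Krtap19 genes, against -1.95 for Krtap4 and -2.41 for Krtap6 genes. On that pair of arrays Krt25 read 10.32 in the IMQ array and 10.04 in the untreated array, and Krtap4-6 read 7.60 in the IMQ array and 9.05 in the untreated array.

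**Figure D4:**
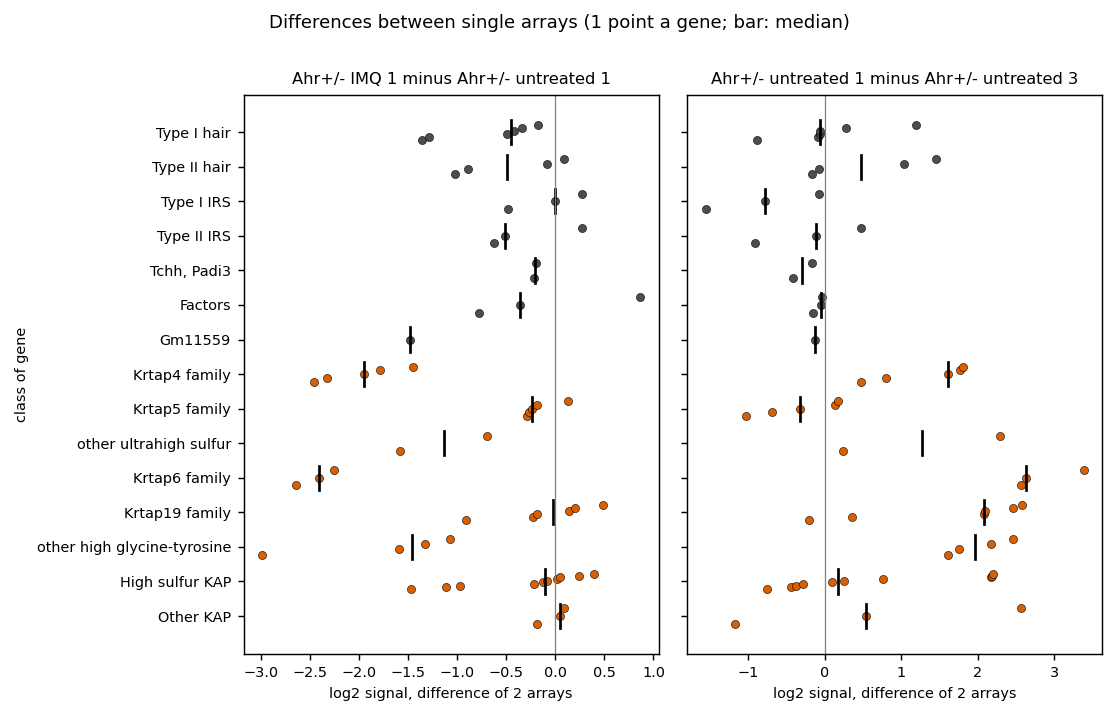
Log2 differences between single arrays for each member (points) by class, with the class median (bar). Left, Ahr+/- IMQ 1 minus Ahr+/- untreated 1; right, Ahr+/- untreated 1 minus Ahr+/- untreated 3, so that both share Ahr+/- untreated 1. On the right the high glycine-tyrosine genes lie above 0 for 12 of 13 genes while the type I sheath keratins have a median of -0.78.

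Further genes of the follicle were followed as lists. Of 17 measured genes of the shaft and root sheath outside the members, 1 was called higher and 5 lower under IMQ in Ahr+/- skin, and 1 higher and 2 lower in Ahr-/- skin. Of all genes, 5.22% were called higher and 3.83% lower in Ahr+/- skin, and 10.6% higher and 12.1% lower in Ahr-/- skin. Without Ahr+/- untreated 2 these shares were 7.09% and 6.3%, and 11.5% and 13.1%. They apply to every list below, and a count near them is not a result about its list. S100a3, a calcium-binding protein of the hair cuticle, read 7.23, 5.79 and 5.38 in Ahr+/- IMQ, against 8.07, 13.02 and 8.47 in Ahr+/- untreated skin (-3.72, limma adjusted p = 0.0306), and was still called without replicate 2 (-2.14, adjusted p = 0.00492). Prr9 was also lower (-4.18, adjusted p = 0.0403), a call lost without that array (-3.06, adjusted p = 0.0827). Mt4, a metallothionein of stratified epithelia, was lower in both genotypes (-4.69 in Ahr-/-, -3.31 in Ahr+/-), and Tgm3, a transglutaminase of hair and epidermis, was higher in both (2.65 in Ahr-/-, 2.83 in Ahr+/-).

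Of 39 measured signals and regulators of the bulb, 13 were called lower and 1 higher in each genotype under IMQ. In Ahr-/- skin the largest were Sostdc1 (-3.08), Gata3 (-2.69), Lhx2 (-2.55) and Bmp2 (-2.24). In Ahr+/- skin they were Corin (-2.01), Lhx2 (-1.80), Gata3 (-1.75) and Ovol1, a repressor of the differentiating epidermis (1.41). In untreated Ahr+/- skin replicate 2 was the highest array for 31 of the 39 genes, replicate 1 for 6 and replicate 3 for 2. Over all genes replicate 2 was the highest for 6630 of 18193. Gata3, a factor of the inner root sheath, was among the few that did not share the members' high array, at 10.13, 10.49 and 10.55. Lhx2, a factor of the follicle stem cells, read 9.67, 9.70 and 8.86 there, with replicates 1 and 2 nearly level. Shh, the growth signal of the matrix, did, at 10.66 in Ahr+/- untreated 2, against 7.14 in replicate 3 and 4.19 to 5.05 on the other 10 arrays. Between genotypes under IMQ, Sostdc1 (-1.80, adjusted p = 0.00186) and Grhl1 (-1.02, adjusted p = 0.00904) were called lower in Ahr-/- skin, and 6 genes of the list were called lower without Ahr+/- untreated 2. With the Gapdh 3' minus 5' difference as a covariate, 0% of all genes were called lower in this comparison, against 1.86% without the covariate. The calls of Sostdc1 and Grhl1 were thus not kept in that fit. Apart from it, the part of RNA quality in the values of these genes was not tested.

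Pigment genes are made by melanocytes that feed the growing shaft. Of 11 measured, 2 were called lower under IMQ in Ahr-/- skin (Dct at -2.27 and Mitf at -0.93) and 3 in Ahr+/- skin (Mlana at -2.83, Dct at -2.69 and Mitf at -0.80), or 5 and 4 without Ahr+/- untreated 2. Mlana read 5.74, 5.45 and 5.47 in Ahr+/- IMQ, against 6.83, 11.17 and 7.15 in Ahr+/- untreated skin. Of 6 bulge genes, which mark the resting stem cells of the follicle, 5 were called lower in Ahr-/- skin (Krt15 at -3.35, Lhx2, Lgr5 at -1.79 and Cd34 at -1.67 among them) and 3 in Ahr+/- skin (Krt15 at -1.57, Lhx2 and Cd34 at -1.19). Krt15 was lowest of the untreated arrays in Ahr+/- untreated 2, at 13.28, against 13.88 to 14.11 on the other 5. The bulge genes did not move together on that array. Cd34 (10.85) and Nfatc1 (8.85) were also lowest of the untreated arrays there, while Lgr5 (9.81) and Lhx2 (9.70) were highest. Tcf7l1 read 9.03 there, close to its highest untreated value of 9.04.

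Cell cycle genes, high in a growing bulb and in thickening epidermis alike, were called higher for 12 of 15 in Ahr-/- and 3 of 15 in Ahr+/- skin, and for 15 of 15 in each genotype without Ahr+/- untreated 2. Birc5, which acts in cell division, was higher by 2.21 in Ahr-/- and 1.58 in Ahr+/- skin. It read 9.35 in Ahr+/- untreated 2, within the 9.04 to 9.55 of the 6 IMQ arrays, against 6.90 to 7.30 on the other 5 untreated arrays. In untreated skin 0 genes of any list were called between genotypes.

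**Figure D5:**
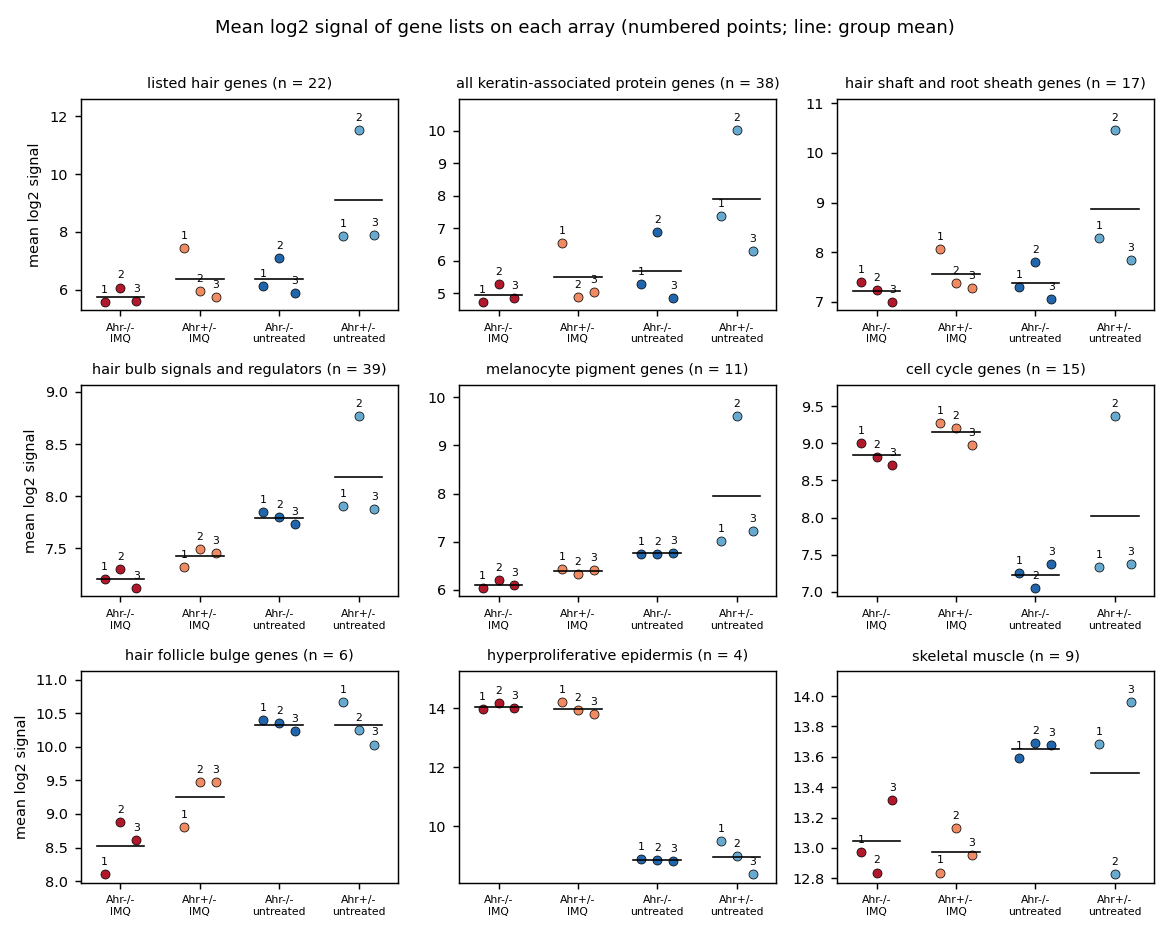
Mean log2 signal of 9 gene lists on each of the 12 arrays, as numbered points by group with a line at the group mean. The keratin-associated protein list averages 10.03 in Ahr+/- untreated 2, against 7.37 and 6.29 in replicates 1 and 3, the pigment and cell cycle lists are also highest there among untreated arrays, and the bulge list lies at 10.03 to 10.66 on the untreated arrays.

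Markers of other skin cells were checked because they share the RNA of whole skin. Their calls under IMQ stand beside 5.22% of all genes called higher and 3.83% lower in Ahr+/- skin. In Ahr-/- skin the shares were 10.6% and 12.1%. Ahr+/- untreated 2 differed from Ahr+/- untreated 1 by at least 1 log2 unit upwards in 15 of 15 cell cycle genes (median 2.01) and 8 of 11 pigment genes (median 3.17), and downwards in 6 of 6 macrophage genes (median -1.49) and 4 of 9 skeletal muscle genes (median -0.95). The part of tissue makeup or hair growth in the members' values was not tested. Under IMQ the keratins of thickened epidermis were called higher for 4 of 4 genes in Ahr-/- and 3 of 4 genes in Ahr+/- skin (Krt6b by 9.66 in Ahr-/- and 9.55 in Ahr+/-), and neutrophil genes for 6 of 6 in each genotype (S100a9 by 8.35 in Ahr-/- and 8.23 in Ahr+/-). S100a8 and S100a9 of this list are also made by inflamed epidermis. The mean level of the neutrophil list was 12.04 to 12.10 in Ahr-/- IMQ, 9.22 to 10.62 in Ahr+/- IMQ, 6.02 to 6.46 in Ahr-/- untreated and 6.05 to 6.25 in Ahr+/- untreated skin (mean log2 over 6 genes). Under IMQ these list means did not overlap between the genotypes, but S100a8 alone did (14.74, 14.71 and 14.64 in Ahr-/-, 14.69, 14.15 and 14.30 in Ahr+/- skin). The list mean was not tested, and it is a different measure from the test of single members.

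For basal and suprabasal epidermis, 4 of 7 genes were called lower and 1 higher in Ahr-/- skin (Krt77 at -6.51, Lor at -3.58, Krt10 at -3.47, Krt14 at 1.58), and 2 lower and 2 higher in Ahr+/- skin (Krt77 at -2.36, Krt2 at -0.73, Krt14 at 1.49, Krt5 at 0.70), or 1 lower and 1 higher in Ahr+/- skin without Ahr+/- untreated 2. The sebaceous gland list had 2 of 5 lower and 1 higher in Ahr-/- skin (Elovl3 at 2.81, Scd3 at -2.67) and 2 higher in Ahr+/- skin (Elovl3 at 3.83, Far2 at 2.21). Adipocyte genes were lower for 2 of 5 in Ahr-/- (Adipoq at -1.56), and for 1 of 5 in Ahr+/- skin (Lep at -1.57), or 2 of 5 without that array. Skeletal muscle genes were lower for 3 of 9 in Ahr-/- (Myh4 at -1.51) and 0 of 9 in Ahr+/- skin, or 6 of 9 without it. Macrophage genes gave 1 lower in Ahr-/- (Csf1r at -0.87) and 1 higher in Ahr+/- skin (Adgre1 at 2.24) of 6, T cell genes 2 lower in each genotype of 6 (Cd3g at -2.40 in Ahr-/- and -1.51 in Ahr+/-), and fibroblast genes 3 lower and 1 higher in Ahr-/- (Lum at -1.60, Pdgfra at 0.69) and 2 lower in Ahr+/- skin (Col1a1 at -1.50) of 6.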

How the data were processed

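The authors hybridised total RNA from whole skin to 3'-end Affymetrix mouse arrays and deposited log2 signals per probe set after RMA (background correction, quantile normalization and summarization; tool version not stated). No read depth exists for arrays, and 3 arrays per group limit the precision. Of 45101 probe sets, 64 were controls, 932 named several genes and 9160 named none in the platform annotation. The other 34945 gave 18193 genes, each represented by its brightest probe set, by the mean of all 12 arrays. The members and lists were chosen with earlier results of these data known.

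The 12 arrays were fitted together by limma 3.58.1 in R 4.3.3 (lmFit, eBayes; 4 group means), with Benjamini-Hochberg adjustment over all 18193 genes. Calls needed a fold of at least 1.5 with an adjusted p under 0.05. The script was tested on simulated data. The rank product, the study's criterion (percentage of false positives under 0.01, fold of at least 1.5, 100 permutations), was an alternative, as were leaving out each array, array weights, a variance trend, a replicate block and a Gapdh covariate. Keratin-associated proteins were classed by family name, since protein sequences were not used here. Named were all listed hair genes, the 3 highest means in each class, the 3 largest called differences in each comparison and up to 4 called genes of each other list. Promoters are from RefSeq (GRCm38.p6).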

Additional observations from a re-analysis of the deposited data

Results flagged for a closer look

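Sostdc1, a secreted inhibitor of Wnt and BMP signals that belongs to the list of bulb signals and not to the hair keratins, met the test for a different response of the genotypes to IMQ. It read 6.88, 7.62 and 7.92 in Ahr-/- IMQ, 8.94, 9.54 and 9.33 in Ahr+/- IMQ, 10.59, 10.44 and 10.63 in Ahr-/- untreated and 10.46, 10.65 and 10.26 in Ahr+/- untreated skin (log2). The interaction was -1.89 (SE 0.34, limma adjusted p = 0.0223), and -1.99 without Ahr+/- untreated 2 (adjusted p = 0.0180). Of all genes, 0.786% were called lower for the interaction, and 0.0055% with the Gapdh 3' minus 5' difference as a covariate. The value of Sostdc1 in that fit is not given here. The part of RNA quality, which differed in Ahr-/- IMQ 1 and 2, was thus not settled. All 3 Ahr-/- IMQ arrays lay below all 3 Ahr+/- IMQ arrays, and the untreated groups overlapped. Of the 60 hair keratin and keratin-associated protein genes, 0 met this test. Groups of 3 arrays were too small for a test of single outlying arrays.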

How the results depend on the processing

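The direction of the members' median was kept in every comparison under every alternative, apart from Ahr-/- against Ahr+/- skin under IMQ, where leaving out single arrays gave -0.60 to 0.032. Calls were less stable. The count of members called lower under IMQ in Ahr+/- skin was 16. At an adjusted p under 0.01 it was 0 (1.35% of all genes called lower), and in a fit of those groups alone 0 (1.96%). It was 1 (Krt32) with a variance trend and robust fit (3.63%) and 5 with the Gapdh difference as a covariate (3.28%). Array weights gave 26 (5.67%), the rank product 27 (0.478%), and leaving out single arrays 0 to 28. In Ahr-/- skin the count lower was 1. It was 0 at an adjusted p under 0.01 (8.08% of all genes called lower), with median centring (11.5%) and with a variance trend (12.1%). It was also 0 with the Gapdh covariate (6.7%) and by the rank product (0.984%). Array weights gave 18 (13.9%), a fit of those groups alone 5 (13%), and leaving out single arrays 0 to 3. The count higher there was 0. It was 1 with array weights (14.5% of all genes called higher), 1 in a fit of those groups alone (11.3%), and 0 to 1 without single arrays. Between genotypes the rank product called 3 members lower under IMQ and 32 in untreated skin, and leaving out single arrays gave 0 to 1 in each. The medians without single arrays were -3.41 to -1.32 in Ahr+/- skin, -0.94 to -0.13 in Ahr-/- skin, -3.35 to -1.21 in untreated skin and 0.61 to 2.64 for the interaction. With array weights, which count arrays far from their group less, the medians were -2.02, -1.03, -0.27, -1.08 and 0.91 for IMQ in Ahr+/- skin, IMQ in Ahr-/- skin, the genotypes under IMQ, the genotypes untreated and the interaction. Of single genes, Foxn1 in Ahr+/- skin turned to -0.024 with the mean of all its probe sets and ranged from -0.26 to 0.69 without single arrays, Krt25 in Ahr-/- skin ranged from -2.04 to 0.61 and the interaction of Krt32 from -0.16 (without Ahr+/- untreated 2) to 1.13. The cause was not tested. Whether the replicate numbers pair the samples was not settled. Of 18 pairs of arrays with the same number, 7 correlated above 0.1 (-0.18 to 0.32), and pairs with different numbers were not examined for comparison. The replicate block gave 25 members lower in Ahr+/- skin (3.85% of all genes).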

Other observations

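Probe sets that name several genes were left out of the counts, and 6 of them name a keratin-associated protein gene. A probe set that names Krtap6-1 with 2 predicted genes read 4.12, 4.40 and 3.73 in Ahr-/- IMQ, 7.12, 4.59 and 4.65 in Ahr+/- IMQ, 5.81, 8.95 and 3.25 in Ahr-/- untreated and 8.97, 11.30 and 6.16 in Ahr+/- untreated skin (log2). A probe set that names Krtap3-2 and Krtap3-3 read 3.80, 4.48 and 3.58 in Ahr-/- IMQ, 7.14, 3.66 and 3.77 in Ahr+/- IMQ, 4.63, 7.43 and 3.19 in Ahr-/- untreated and 8.21, 12.16 and 6.79 in Ahr+/- untreated skin. In both, Ahr+/- IMQ 1, Ahr-/- untreated 2 and Ahr+/- untreated 2 were the highest arrays of their groups. Of the 7 members with several probe sets, at least 3 had sets that disagreed. For Krtap6-3 the set used here read 8.19 in Ahr-/- untreated 2, and its other set lay between 3.3 and 4.0 on all 12 arrays. For Msx2 the set used read 11.25 in Ahr+/- untreated 2, and its other set lay between 3.08 and 3.95. For Krtap19-1 the set used lay between 5.18 and 5.92, and its other set read 5.43 in Ahr+/- IMQ 1 and 6.29 in Ahr+/- untreated 2, against 2.99 to 4.08 on the other 10 arrays.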
